A study of Mus musculus with 2 samples.

Results

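Mir191 and Mir425 are a pair of microRNA (miRNA) hairpins that lie 384 bp apart on the plus strand of mouse chromosome 9, at the upstream edge of Dalrd3. Both were measured by small RNA sequencing in the forebrain of newborn mice. They were chosen by name, as 2 of the 1973 gene rows in the deposited count tables. Mir425 has a row of its own and was read from the counts on the strand of the gene. Mir191 has none: it was read from the row of Gm24083, an annotated miRNA gene on the minus strand, using the counts on the opposite strand, where Mir191 lies.

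The series holds 1 group of 2 libraries, made from total RNA of a single forebrain each, from B6NCrl mice at postnatal day 0. No treatment, genetic change or other condition was compared, the labels give a single donor entry for the 2 animals, and sex was not collected. Replicate 1 is pup 1 and replicate 2 is pup 3, taken as separate animals. Reads on the strand of a miRNA gene totalled 2742746 in pup 1 and 2427066 in pup 3, and levels are given as CPM, counts per 1000000 of these reads. In the check of the tissue label, 4 of 6 loci of the forebrain neuron list were detected (at least 10 counts in both libraries). The list summed to 42895 CPM in pup 1 and 38966 CPM in pup 3, of which Mir137 alone gave 28264 and 23308 CPM. Of the neuronal Mir124a copies on this list, Mir124a-1 stood at 5.47 and 8.65 CPM, and Mir124a-2 and Mir124a-3 were not detected. Reads with several places in the genome are counted at no locus, and made up 42.2% of reads in pup 1 and 44.1% in pup 3. Low counts at a miRNA with several copies, such as Mir124a, therefore do not show that the miRNA is scarce. Of the 4 loci of the neural list 3 were detected, and that list summed to 9038 and 8207 CPM. The 6 hindbrain and spinal cord loci of the Hox clusters summed to 236 and 268 CPM, with Mir196a-1 at 0. The 3 blood loci summed to 88.2 and 71.3 CPM, the 4 microglia and white blood cell loci to 446 and 427 CPM, and the endothelial Mir126a stood at 30517 and 35573 CPM.

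MicroRNAs are cut from a hairpin in a longer transcript, first in the nucleus and then in the cytoplasm. The strand loaded into an Argonaute protein pairs with messenger RNAs mainly through its seed, bases 2 to 8, and represses them. Hairpins that lie close together on a strand are often cut from the same primary transcript, yet their mature forms can accumulate to different levels. The miRNAs miR-191 and miR-425 are made in most tissues, and both are in common use as reference miRNAs in quantitative PCR. Dalrd3 encodes a protein with a domain typical of aminoacyl-tRNA synthetases that takes part in tRNA methylation.

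The mature forms of both hairpins, with those of a further miRNA that shares a seed with one of them, show the seed of each. They are written 5′ to 3′ from RefSeq (GRCm38.p6), with the seed in capitals.
mmu-miR-191-5p: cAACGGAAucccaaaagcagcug
mmu-miR-191-3p: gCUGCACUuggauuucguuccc
mmu-miR-425-5p: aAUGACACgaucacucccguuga
mmu-miR-425-3p: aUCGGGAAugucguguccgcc
mmu-miR-489-3p: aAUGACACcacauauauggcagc
The 4 forms of the pair have 4 different seeds. Among the mature mouse forms in the RefSeq table, the seeds of miR-191-5p, miR-191-3p and miR-425-3p were each found once. The seed of miR-425-5p was found in 2 forms, the other being miR-489-3p, from Mir489 on chromosome 6. These 2 miRNAs are identical over their first 8 bases and at 12 of 23 positions in all, compared from base 1 without gaps. Mir489 had 0 counts in pup 1 and 1 count in pup 3, against 3493 and 3148 at Mir425, so nearly all counts at loci with this seed were those of Mir425.

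The hairpins are shown because every count below is a count per hairpin. Capitals mark the mature forms, the 5p form first.
Mir191: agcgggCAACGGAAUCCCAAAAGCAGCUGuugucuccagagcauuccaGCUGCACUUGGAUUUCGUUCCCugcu
Mir425: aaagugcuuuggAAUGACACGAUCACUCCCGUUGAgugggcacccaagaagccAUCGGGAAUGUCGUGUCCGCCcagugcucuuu
The tables do not separate the 5p from the 3p form. Mir191 lies at chr9:108568319-108568392 (74 bp) and Mir425 at chr9:108568777-108568861 (85 bp), both on the plus strand of GRCm38. The predicted minimum folding energies, from ViennaRNA, were −35.0 kcal/mol for Mir191 and −31.7 kcal/mol for Mir425, each with 28 base pairs. The longest run shared with any of the 1004 other hairpins of the table, on either strand, was 12 nt for each. None of the 4 mature sequences occurred in a GENCODE M21 transcript of another gene outside this locus. The genome itself was not searched, so copies outside annotated transcripts were not tested.

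The 2 annotations differ on whether these hairpins are in Dalrd3. In RefSeq the span of the Dalrd3 gene runs from 108567484 to 108572773 and holds both hairpins, 835 bp (Mir191) and 1293 bp (Mir425) after its start. In GENCODE M21, Dalrd3 (ENSMUSG00000019039) starts at 108569886, which is 1493 bp after Mir191 and 1024 bp after Mir425. There both hairpins lie in a separate long noncoding RNA gene, 4833445I07Rik (108567533 to 108569174), which ends 711 bp before Dalrd3. Both fall in the single exon of transcript 4833445I07Rik-201. In transcript 4833445I07Rik-202, Mir191 falls in the intron between its 2 exons, and Mir425 lies outside it. Neither host transcript was measured by these libraries.

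**Figure D1:**
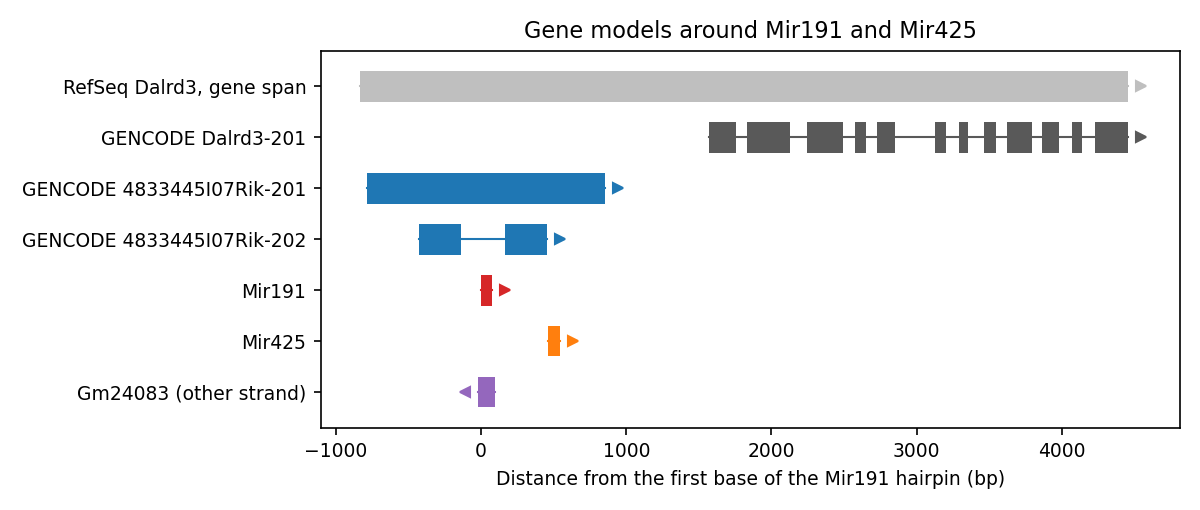
Gene models around the pair, with the distance from the first base of the Mir191 hairpin in bp on the horizontal axis; boxes are exons, or the whole span for the RefSeq gene and the hairpins, lines are introns, and arrowheads give the strand. Both hairpins lie before the first exon of Dalrd3 in GENCODE and inside the wider span of Dalrd3 in RefSeq, and Gm24083 covers Mir191 from the other strand.

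Gm24083 (ENSMUSG00000092915.1, chr9:108568295-108568414, minus strand) is 120 bp long and covers the whole of Mir191. Its sequence, from GENCODE M21, is shown because its row carries the Mir191 reads. Capitals mark bases 23 to 96, which are the reverse complement of the Mir191 hairpin.
Gm24083: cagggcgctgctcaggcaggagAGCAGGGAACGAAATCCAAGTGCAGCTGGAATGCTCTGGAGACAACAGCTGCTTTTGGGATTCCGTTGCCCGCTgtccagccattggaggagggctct
The row of Gm24083 had 11027 reads on the opposite strand in pup 1 and 8735 in pup 3. On its own strand it had 0 reads in both pups, which allows up to 1.09 CPM in pup 1 and 1.24 CPM in pup 3, or up to 0.0272% and 0.0343% of the reads of the row (3 counts per library, covering counting error only). Read by the strand of the annotated gene alone, the row is empty. The Mir425 row was the reverse, with 3493 of its 3494 reads on its own strand in pup 1 and all 3148 in pup 3. Among the 331 loci with at least 10 gene-strand counts in both pups, 300 had no opposite-strand count in either.

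Another 10 rows held at least 10 opposite-strand counts in both pups and more there than on their own strand. With Mir191, these 11 rows made up 99.8% of all opposite-strand counts in pup 1 and 99.7% in pup 3, and Mir191 alone made up 16.3% and 18.9%. Mir191 was the fourth most abundant of them, at 3810 CPM, after Mir376a (row of Gm25252, 4977 CPM), Mirlet7e (Gm25927, 4586 CPM) and Mir409 (Gm24321, 3896 CPM), in the mean of both pups. Below it stood the locus opposite Gm25301 (1649 CPM), Mir497 (Mir497b), Mir380 (Gm25750), Mir299a (Mir299b), Mirlet7f-1 (Gm24111), Mir142 (Mir142b) and Mir9-1 (Gm25641, 75.3 CPM). At 9 of the 11 rows the gene strand had 0 reads in both pups, as at Gm24083, and at Mir497b and Mir299b it had at most 2 in a pup.

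Mir191 was the more abundant of the pair in both pups. It stood at 4020 CPM in pup 1 (95% exact binomial interval by Clopper and Pearson 3946 to 4096) and 3599 CPM in pup 3 (3524 to 3675), a mean of 3810 ± 298 CPM (SD, n = 2). These reads are not part of the gene-strand total that scales them, so for Mir191 CPM is a ratio to that total; over the total of both strands, which holds them, its mean was 3728 per 1000000 reads. Mir425 stood at 1274 CPM in pup 1 (interval 1232 to 1317) and 1297 CPM in pup 3 (1252 to 1343), a mean of 1285 ± 16.6 CPM (SD, n = 2), or 0.129% of the gene-strand counts. The intervals of Mir191 in the 2 pups did not overlap, and those of Mir425 did. In whole forebrain, fewer cells that make a miRNA and less of it per cell cannot be told apart. Intervals cover counting error only, since copies made by PCR count as separate reads.

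Both loci stood above the median of the loci that could be ranked, 331 gene-strand loci and the 11 opposite-strand ones. Mir191 held rank 51 of 342, 15.3-fold above the median locus (248 CPM), and Mir425 rank 96, 5.18-fold above it. Around Mir191, Mir181d at rank 50 (3861 ± 485 CPM) and Mir151 at rank 52 (3788 ± 215 CPM) lay within the spread between the pups. So did Mir143 at rank 48 (4003 ± 431 CPM), Mir409 at rank 49 (3896 ± 873 CPM) and Mir21a at rank 53 (3713 ± 236 CPM). The order of these loci is not settled. The same held at Mir425 for Mir92-1 at rank 95 (1292 ± 69.7 CPM), and for Mir138-1 at rank 97 and Mir200b at rank 98 (each 1269 CPM). How well each sequence is ligated and amplified also enters its count, so differences between loci are differences in reads and not in molecules. Reads with several places in the genome are left out, so loci of miRNAs with several copies can rank too low. The ranks and the folds over the median locus therefore hold for counted reads only.

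**Figure D2:**
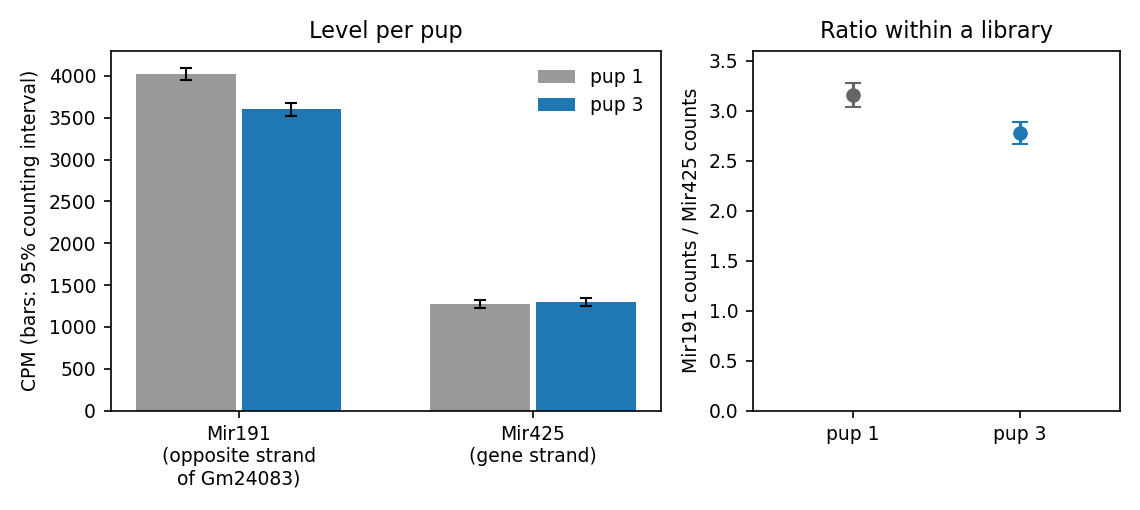
Left, level of each locus in each pup in CPM, with the 95% interval from counting; right, Mir191 counts divided by Mir425 counts in each pup, with its 95% interval. Mir191 was lower in pup 3 on this scale and higher with size factors, Mir425 stood at 1274 and 1297 CPM, and the ratio fell from 3.16 to 2.77.

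The direction of Mir191 between the pups depended on how the libraries were scaled, while Mir425 was higher in pup 3 on some scales and did not pass on others. Each side is 1 pup, so the tests compare these 2 libraries and no condition. Relative to library totals, Mir191 had a log2 ratio of pup 3 over pup 1, on the scale of CPM + 1, of −0.16 (95% counting interval −0.20 to −0.12; two-sided Fisher's exact test, Benjamini-Hochberg adjusted p = 3.94e-14). Mir425 had 0.03 (−0.04 to 0.10; Fisher's exact test, adjusted p = 0.561). The adjustment was over 414 features with at least 10 summed counts, where a feature is a row on either strand. Of these, 57.0% passed at 0.05, 46.6% lower and 10.4% higher in pup 3, so a call such as that of Mir191 was common between these libraries.

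The median of the 414 features was −0.31, and relative to it Mir191 stood at 0.15 and Mir425 at 0.34. With DESeq2 size factors, which centre on the typical locus in place of the total, Mir191 was higher in pup 3, with a log2 ratio of 0.15 (interval 0.11 to 0.19; exact binomial test, adjusted p = 5.57e-13). Mir425 was then also higher, with 0.34 (0.27 to 0.41; exact binomial test, adjusted p = 7.82e-21). On that scale 45.9% of the features passed, 24.6% higher and 21.3% lower. With edgeR's TMM sizes the values were 0.09 for Mir191 (exact binomial test, adjusted p = 3.46e-05) and 0.28 for Mir425 (adjusted p = 3.26e-14), where 47.1% of features passed, 20.8% higher and 26.3% lower.

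The closeness of the 2 pups at Mir425 also belonged to the scale of library totals. Its coefficient of variation, SD over mean, was 0.0129 there, lower than at all but 9 of the 342 ranked loci, and that of Mir191 was 0.0782, with 73 loci lower. The median locus had 0.181, and edgeR's common dispersion gave what it terms a biological coefficient of variation of 0.248. Animal and library preparation cannot be told apart in these values. With size factors the level of Mir425 was 1142 CPM in pup 1 and 1446 CPM in pup 3, and its SD grew from 16.6 to 215 CPM (n = 2). The SD of Mir191 was about the same on both scales, 298 and 287 CPM, with the pups in opposite order.

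Among loci of like level, calls were more numerous than over all 414 features, of which 46.6% were lower and 10.4% higher in pup 3. This difference was not tested. The 414 include features with as few as 10 summed counts, where the test has little power, so the shares are not alike. Within 2-fold of the mean level of Mir191 lay 56 other loci, of which 40 were lower in pup 3, 10 higher and 6 did not pass, relative to totals, with log2 ratios from −0.87 to 1.30 and a median of −0.25. Within 2-fold of Mir425 lay 51, of which 38 were lower, 7 higher and 6 did not pass, with a median of −0.28. Of these 51, 1 had a smaller coefficient of variation than Mir425, and of the 56 around Mir191, 15 had a smaller one than Mir191.

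**Figure D3:**
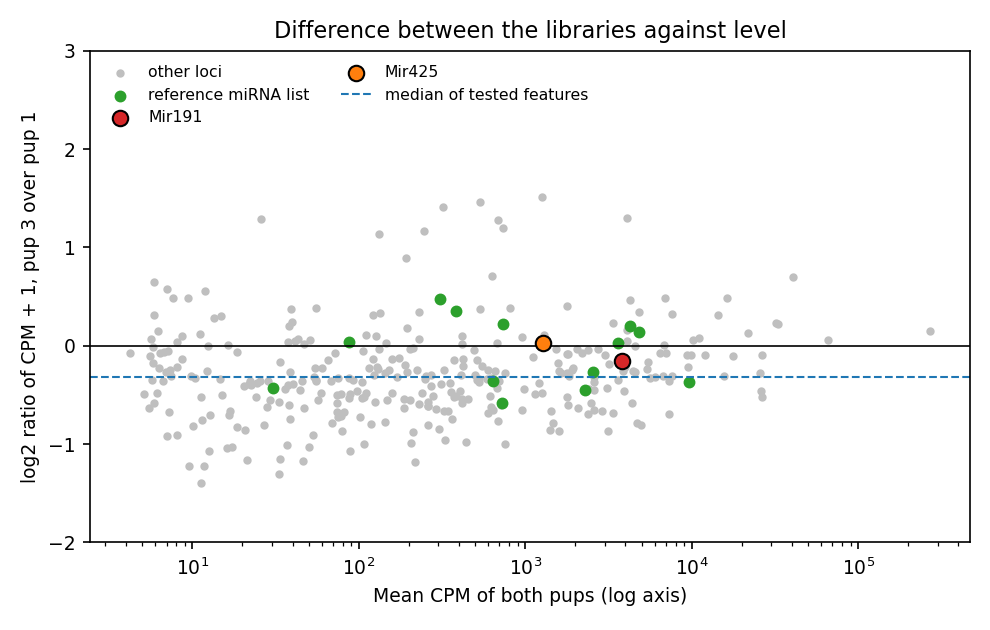
Log2 ratio of CPM + 1 in pup 3 over pup 1 against mean CPM on a log axis, for the 342 ranked loci; the dashed line is the median of the 414 tested features, −0.31. Mir191 at −0.16 and Mir425 at 0.03 both lie above that line, and on opposite sides of 0.

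The ratio of the 2 loci within a library needs no scaling, and it differed between the pups. Mir191 had 3.16 counts for each count of Mir425 in pup 1 (95% exact interval 3.04 to 3.28) and 2.77 in pup 3 (2.66 to 2.89), a mean of 2.97 ± 0.270 (SD, n = 2). As a share of the reads of both, Mir191 made up 75.9% in pup 1 and 73.5% in pup 3. Mir191 was the higher in both pups, and the intervals of the ratio did not overlap. The ratio in pup 3 was 0.879 of that in pup 1 (95% interval 0.831 to 0.930), a change of −0.19 on the log2 scale (Fisher's exact test, two-sided, adjusted p = 3.15e-05 over 112 pairs). This test also says that the differences of Mir191 and Mir425 between these libraries were unequal beyond counting error, whatever the scale.

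Such a change was common among neighbouring loci. The 112 pairs are all adjacent ranked loci within 10 kb of each other on a strand, and 41.1% of them changed in ratio by the same test. The change at Mir191 and Mir425, 0.19 in size, was below the median of all pairs, 0.24, with 45 pairs smaller and 66 larger (range 0.02 to 1.13). The order within the pair was the same in both pups at 106 of the 112. The difference in level within the pair, 2.97-fold, was also below the median of 4.93-fold, with 72 pairs wider apart and 39 closer. Reads with several places in the genome are counted at no locus, so a locus with copies elsewhere can read low and widen its pair. The widest, Mir181a-1 over Mir181b-1 (1098-fold), had 21 and 15 counts at Mir181b-1 in pups 1 and 3. How far such losses set the median was not tested, and adjacent pairs can share a locus. The upstream locus was the higher one, as at Mir191, in 56 pairs.

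The pairs most like this one in level, upstream over downstream, were Mir410 over Mir3072 (mean log2 ratio 1.61), Mir134 over Mir668 (1.61) and Mir1193 over Mir666 (1.62), against 1.57 for Mir191 over Mir425. None of these 3 passed Fisher's exact test for a change in ratio between the pups (adjusted p = 0.745, 0.693 and 0.743), at 122 to 2077 counts per locus. The pairs nearest in their change were Mir412 over Mir369 (−0.18, adjusted p = 0.294), Mir433 over Mir127 (−0.17, adjusted p = 1.37e-05) and Mir376c over Mir376a (−0.17, adjusted p = 0.0268). All 6 lie on chromosome 12, but so do many of the neighbouring pairs, so the shared chromosome is no result.

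**Figure D4:**
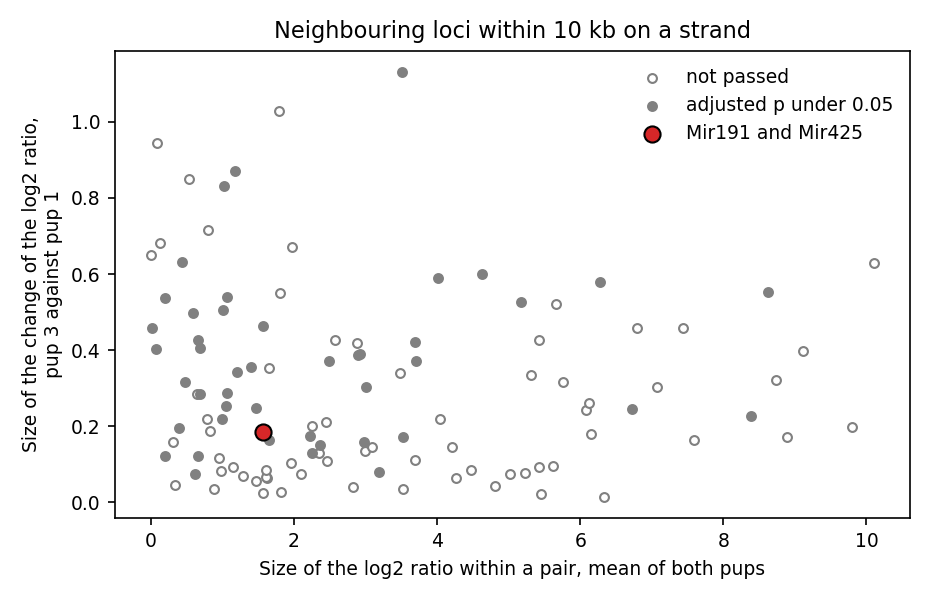
For the 112 neighbouring pairs, the size of the change of their log2 ratio between the pups against the size of the ratio itself, with filled points where Fisher's exact test passed after adjustment. Mir191 and Mir425 (red) lie at 1.57 and 0.19, among the pairs with smaller differences on both axes.

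By closeness of level in both pups (distance in log2 CPM + 1 over the 2 libraries, which share 1 group and 2 points only), the loci nearest to Mir191 were Mir151 (distance 0.03), Mir21a (0.06), Mir181d (0.07), Mir143 (0.11) and Mir423 (0.17). Of these 5, relative to totals, Mir151, Mir21a, Mir181d and Mir143 were lower in pup 3, with log2 ratios of −0.12, −0.13, −0.26 and −0.22, and Mir423 did not pass (0.03; Fisher's exact test, adjusted p = 0.207). Loci chosen by this distance must have a ratio close to that of Mir191, so a like direction is no result. With size factors their log2 ratios were 0.20, 0.18, 0.06, 0.09 and 0.34 in the same order as the distances. The loci nearest to Mir425 were Mir92-1 (0.06), Mir203 (0.10), Mir188 (0.32), Mir676 (0.32) and Mir15b (0.36). Mir92-1 was higher in pup 3 (log2 ratio 0.11), Mir188 (−0.37) and Mir676 (−0.11) were lower, and Mir203 (0.00) and Mir15b (−0.04) did not pass, all relative to totals. With size factors Mir92-1 (0.42), Mir203 (0.31), Mir676 (0.20) and Mir15b (0.28) were higher, and Mir188 (−0.06) did not pass.

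As reference miRNAs, Mir191 and Mir425 were set beside 15 other loci of miRNAs used to normalise quantitative PCR. Relative to library totals, 5 of the 17 were higher in pup 3, 6 lower and 6 did not pass. Of all features, 10.4% were higher and 46.6% lower. All features include those of low count, where the test has little power, so these shares are not alike on either scale. Among the 15 other loci alone, 5 were higher, 5 lower and 5 did not pass. The median log2 ratio of the 17 was −0.03, against −0.31 over all features. With size factors 9 of the 17 were higher, 3 lower and 5 did not pass, where 24.6% of all features were higher and 21.3% lower. The median was then 0.26, against −0.01 over all features. Among the 15 other loci alone, 7 were higher, 3 lower and 5 did not pass with size factors. Several of these miRNAs have more than 1 hairpin, so the 17 loci are not 17 separate miRNAs. The 5 higher loci with totals include both Mir16-1 and Mir16-2, and both Mirlet7a-1 and Mirlet7a-2. Reads with several places in the genome, 42.2% of those of pup 1 and 44.1% of those of pup 3, are counted at no locus.

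Mir423, at 3583 CPM in pup 1 and 3662 CPM in pup 3, had the same values as Mir425 to 2 decimals, a log2 ratio of 0.03 with totals, which did not pass, and 0.34 with size factors, which did. Mir93, of the miR-17 family, was higher on both scales, with 0.14 and 0.45, as were Mir16-1 (0.20 and 0.51), Mir16-2 (0.22 and 0.53), Mirlet7a-1 (0.35 and 0.67) and Mirlet7a-2 (0.48 and 0.79). Mir26b (−0.37 and −0.06), Mir361 (−0.45 and −0.13) and Mir186 (−0.58 and −0.27) were lower on both.

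Mir320 (−0.36) and Mir484 (−0.27) were lower with totals and did not pass with size factors (−0.05 and 0.04). Mir24-2 (0.04 and 0.35) passed with size factors only, while Mir24-1, read opposite Mir3074-1, Mir103-1 and Mir103-2 had at most 97 counts in a pup and passed on neither scale. Size factors moved the log2 ratio of each locus up by about 0.31, so a locus between −0.31 and 0 with totals, such as Mir191, changes sign with them. Mir151, Mir21a, Mir181d and Mir143, outside this list, passed in opposite directions on these 2 scales as Mir191 did.

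**Figure D5:**
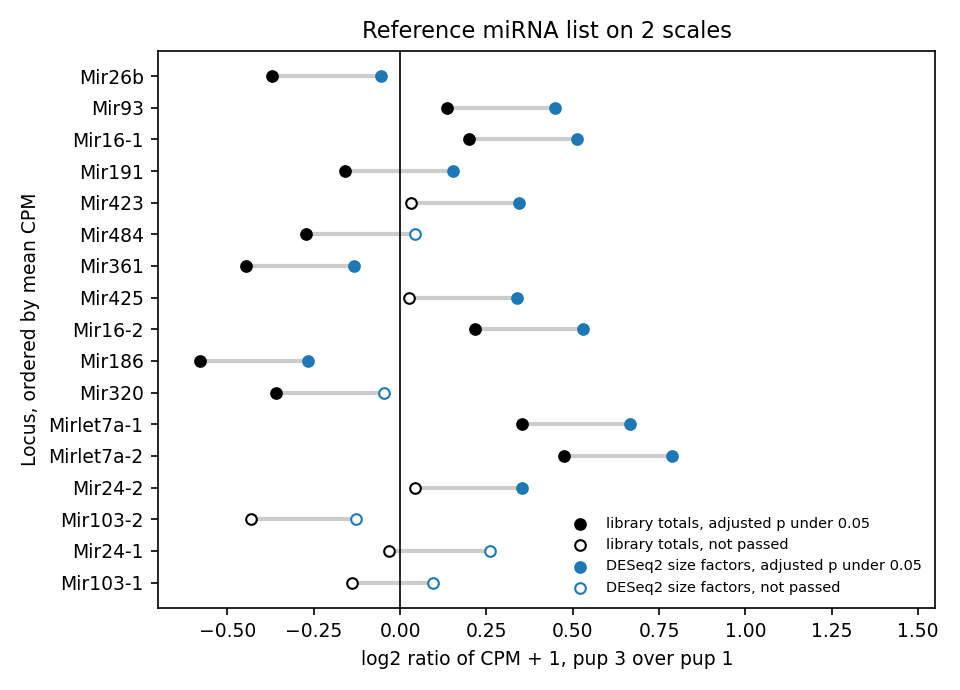
Log2 ratio of CPM + 1 in pup 3 over pup 1 for the 17 reference loci, ordered by mean level, relative to library totals (black) and with DESeq2 size factors (blue); filled points passed at an adjusted p of 0.05. Each locus shifts to the right with size factors, and Mir191 moves from −0.16 to 0.15.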

How the data were processed

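For each library the authors deposited a table of raw, unnormalized counts of reads at miRNA genes, on mm10 with annotation release M4, per the text deposited with the files. Neither aligner nor counting tool is given in the sources used here. Each table has 3 count columns: both strands, the gene strand and the opposite strand, as read from the values (the first is the sum of the others in every row). The 4 rows that name no gene were left out. Of the 1973 gene rows, 1894 matched GENCODE M21 (GRCm38, the same assembly) by identifier. Opposite-strand counts took the name of the RefSeq hairpin on that strand.

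CPM are counts per 1000000 gene-strand counts. Features with at least 10 summed counts were tested between the libraries by Fisher's exact test with Benjamini-Hochberg adjustment; scaled alternatives used exact binomial tests. A single group leaves no contrast for edgeR's quasi-likelihood test, so edgeR gave only a dispersion and the TMM sizes. Tests were checked on simulated counts with counting error only, so the check does not cover other spread between libraries. Members, lists and tests were chosen with earlier results of these data known. Named loci are the members, the reference list, the 5 nearest loci in level, sharers of a seed, opposite-strand loci and the 3 nearest pairs in ratio and in change. Alternatives were other columns, scales, filters, pseudocounts and distances, and leaving out a replicate. Tools were Python 3.11.15, scipy 1.17.1, pandas 2.3.3, ViennaRNA 2.7.2, R 4.3.3, edgeR 4.0.16 and DESeq2 1.42.0.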

Additional observations from a re-analysis of the deposited data

How the results depend on the processing

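With 2 libraries of 1 group, a difference between the pups is the only measure of spread. Animal and library preparation cannot be told apart in it. The depth leaves counting error small at both loci. No paired analysis was possible because the series holds 1 group. The direction of Mir191 between the pups reversed, from a log2 ratio of −0.16 with library totals to 0.091 with TMM sizes and 0.15 with DESeq2 size factors. The change from totals to size factors moved each locus by about 0.31, and why the scales differ was not tested. Mir425 went from 0.03, which did not pass, to 0.28 and 0.34, and to 0.083 with totals without Mir99a (Fisher's exact test, adjusted p = 0.0359), all of which passed. The log2 change of the Mir191 to Mir425 ratio was −0.19 under all 3 alternatives (adjusted exact p from 2.85e-05 to 3.20e-05). Without Mir99a in the total, levels rose to 5210 CPM (Mir191) and 1760 CPM (Mir425), and with the total of both strands Mir425 stood at 1258 CPM. Leaving out a replicate gave 3599 to 4020 CPM for Mir191, 1274 to 1297 CPM for Mir425 and 1.47 to 1.66 for the log2 ratio of both. Features called higher in pup 3 numbered 43 with totals, 86 with TMM and 102 with size factors, and those called lower 193, 109 and 88. In the reference list the higher loci numbered 5, 8 and 9 and the lower ones 6, 3 and 3. The coefficient of variation from edgeR was 0.248, or 0.215 with size factors, and the square root of the median DESeq2 dispersion was 0.104.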
